A study of Mus musculus with 10 samples.

Results

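The genes described here encode scaffolds of the centrosome, of the spindle poles and of the complex that guides chromosome segregation. They were chosen by name: genes whose symbol starts with Cep and a number, Tacc1, Tacc2, Tacc3, Pcnt, Akap9, Cdk5rap2, Incenp, Ninl, Nin, Pcm1 and Ofd1. In the table of mouse N2A neuroblastoma cells they held 3653 of 661162 splicing events, under 50 of 26264 gene names. The name rule also took Cep112it, Cep112os1 and Cep83os, whose symbols name transcripts inside or opposite another gene, and Cep295nl. In the neurons, 8 of 2469 microexon rows belonged to 8 of these genes.

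A centrosome is a pair of centrioles in a cloud of pericentriolar material that nucleates microtubules. Large coiled-coil proteins build that cloud and the appendages that anchor microtubules and cilia. In dividing cells the same scaffolds form the spindle poles, while INCENP holds the kinase Aurora B at the chromosomes. In neurons many microtubules are no longer anchored at the centrosome.

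N2A cells, an established line, received an siRNA pool against Qk, which encodes the splicing regulator Quaking (the 3 siQk samples), or a pool with no target (the 3 siNT samples). Both pools were used at 40 nM, and RNA was taken after 72 h. Glutamatergic neurons grown from mouse embryonic stem cells were given 100 uM cycloheximide, an inhibitor of translation, for 12 h or were left untreated on day 7 in culture (n = 2 each). Only polyadenylated RNA was sequenced, and the labels call the replicates biological. A single pool per arm was used, so effects of the Qk pool on other transcripts and effects of losing Qk cannot be told apart.

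Splicing is given as percent spliced in (PSI), the share of reads that support inclusion of an exon, intron or splice site. Exon-event reads in genes numbered 26587151 to 80455753 in siQk samples and 37872380 to 78456603 in siNT samples. Qk itself had 8.18, 12.3 and 13.0 CPM (exon-event reads scaled to a common sample total) in siQk samples, against 90.9, 82.9 and 82.5 CPM in siNT samples. The groups did not overlap, and 13.1% of the siNT mean remained (log2 fold change -2.91, limma adjusted p = 0.0003005). Of 13 markers of sympathetic neuroblasts, the lineage of neuroblastoma, 10 had exon events here and 9 exceeded 1 CPM in every sample. The list summed to 1360 to 1376 CPM in siQk samples and 1169 to 1220 CPM in siNT samples. Of the 9 tested, 5 were higher and 4 lower in siQk samples, and 3 were called (33.3%), against 4.54% of all genes. Chga and Isl1 rose, from means of 264.4 to 365.2 and 35.4 to 48.7 CPM (limma adjusted p = 0.0152 and 0.04608). Gata2 fell from 148.1 to 103.7 CPM (limma adjusted p = 0.02325). Stmn2, at 589.5 CPM in siQk and 489.1 CPM in siNT samples, was not called (limma adjusted p = 0.1014). The part of this shift in the results below was not tested. The fibroblast, glia and immune lists each summed to at most 3.70 CPM in siQk samples and 2.33 CPM in siNT samples, with 1 of 6, 3 of 5 and 1 of 4 of their genes at 0 in every sample.

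Qk knockdown changed splicing at a few sites of 4 of these genes. The exons called were a 54 nt exon of Akap9, a 2121 nt exon of Nin and a 12 nt exon of Incenp, and all of them fell. In Tacc2 a longer 5′ splice site was used more often, and the intron that starts right after the shorter site scored higher. The sequences below are shown because they are the stretches gained or lost. All are on mm10 and come from GENCODE M21 transcripts, with cassette exons or the gained stretch in capitals and up to 30 bases of the neighbouring mRNA in lower case.
Akap9 exon (chr5:3954397-3954450, plus strand, exon 4 of 8 in Akap9-207): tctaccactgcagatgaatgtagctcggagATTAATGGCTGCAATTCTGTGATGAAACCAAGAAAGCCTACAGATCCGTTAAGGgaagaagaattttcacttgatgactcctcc
Nin exon, first 60 bases in capitals (exon at chr12:70042132-70044252, minus strand, exon 18 of 30 in Nin-201): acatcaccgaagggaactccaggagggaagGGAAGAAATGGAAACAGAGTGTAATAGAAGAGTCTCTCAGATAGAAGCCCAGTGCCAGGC
Nin exon, last 60 bases in capitals: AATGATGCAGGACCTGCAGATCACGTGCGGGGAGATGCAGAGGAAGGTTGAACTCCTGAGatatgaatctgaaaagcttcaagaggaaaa
Incenp exon (chr19:9883192-9883203, minus strand, exon 10 of 18 in Incenp-205): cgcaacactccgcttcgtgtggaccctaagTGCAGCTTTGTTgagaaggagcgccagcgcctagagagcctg
Tacc2 extension in capitals, then the first 15 bases after it (chr7:130735121-130735243, plus strand, Tacc2-206): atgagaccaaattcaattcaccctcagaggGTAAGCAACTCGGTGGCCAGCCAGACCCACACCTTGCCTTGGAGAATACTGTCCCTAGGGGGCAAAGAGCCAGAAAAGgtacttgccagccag

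Each of the 3 exons and the 78 nt Tacc2 extension has a length that is a multiple of 3. Their lengths equal 18, 707, 4 and 26 codons for Akap9, Nin, Incenp and Tacc2, in that order. Each is coding in at least 1 annotated transcript, and none has a stop codon in the annotated reading frame. That frame need not start at the first base, and in the Nin exon it does not. The inclusion and the skipping of each exon are annotated: 1 transcript holds the Akap9 exon and 2 skip it, 6 hold the Nin exon and 3 skip it, and 1 holds the Incenp exon and 2 skip it.

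Akap9 encodes a scaffold that ties protein kinase A to the centrosome and the Golgi and helps nucleate microtubules. Its 54 nt exon was included at 1.20, 3.70 and 6.10% in siQk samples, from 42, 28 and 87 reads. In siNT samples it was included at 72.9, 65.0 and 61.6%, from 102, 66 and 139 reads. The exon was thus near absent in every siQk sample and the majority form in every siNT sample. The difference was -62.8 points (limma adjusted p = 0.0009432), and it was called in all 12 alternatives run. In the siQk sample of fewest reads, 1 of 28 supported inclusion (95% Wilson interval 0.633 to 17.7%). This and the other intervals are each computed from the reads of 1 sample, so they cover at most counting error. PCR copies of a molecule are counted like separate ones, so the intervals may be too narrow.

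The other 6 tested Akap9 exons were not called. The largest difference among those whose groups did not overlap was in a 180 nt exon, at 87.1, 86.1 and 90.7% in siQk samples and 91.3, 91.1 and 91.9% in siNT samples (difference -3.51 points, limma adjusted p = 0.7509). The 3057 nt intron that holds the 54 nt exon (chr5:3951735-3954791) had retention of 3.44% in siQk 3, while siQk 1 and siQk 2 were at 0 of 23 and 0 of 14 reads. This allows up to 13.0 and 21.4%. Such limits, here and below, are 3 divided by the reads, an approximation that differs from the Wilson intervals. In siNT samples the retention was 20.8, 5.42 and 6.19%. This intron was not called (limma adjusted p = 0.8253) and had as few as 11 reads in a sample.

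Quaking is known to bind RNA at ACTAAC and ACTAAT (in RNA, with U for T). No genome sequence was used here, so the intron was searched only where an annotated transcript covers it. For Akap9 the retained-intron transcript Akap9-203 covers both sides of the exon. The first 100 bases of intron after the exon are shown because they hold both motifs, in capitals.
Akap9 intron after the exon (chr5:3954451-3954550, plus strand): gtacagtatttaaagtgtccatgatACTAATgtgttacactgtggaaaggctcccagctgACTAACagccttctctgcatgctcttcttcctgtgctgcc
ACTAAT starts 26 nt and ACTAAC 61 nt after the exon. None was found in the 150 nt before the exon, whose last 30 bases read ataatatatcaggaaattgtttttatacag. On the transcript's strand, 3 of 13 exons of these genes with such sequence held a motif within 150 nt downstream and 2 of 12 within 150 nt upstream. Among all tested exons with sequence, the shares were 4.51% of 2351 downstream and 5.14% of 1946 upstream. Within 300 nt the counts were 1 of 11 downstream and 3 of 11 upstream. The shares of all tested exons there were 9.40% of 1840 and 10.0% of 1416. Of the exons of these genes with a motif in either window, only that of Akap9 was called. A match is a description of the letters. The introns beside the Nin and Incenp exons were not searched, and the Tacc2 stretch printed above holds neither motif.

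Nin encodes ninein, which anchors microtubule minus ends at the subdistal appendages of the mother centriole. The 2121 nt exon was included at 7.77, 5.00 and 6.59% in siQk samples, from 21, 21 and 49 reads. In siNT samples it was included at 51.5, 42.2 and 44.7%, from 84, 54 and 52 reads. The siQk samples lay far below all siNT samples. The difference was -39.7 points (limma adjusted p = 0.0097). In siQk 2, 1 of 21 reads supported inclusion (95% Wilson interval 0.846 to 22.7%). The call was lost when a siNT sample was left out, with adjusted p-values of 0.08678, 0.06684 and 0.06236 without siNT 1, 2 and 3 and a difference of at least 37 points downward each time. The only other tested exon of Nin, of 61 nt, averaged 2.57% ± 1.30 in siQk samples and 2.80% ± 1.52 in siNT samples (SD, n = 3 each).

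Incenp encodes the scaffold of the chromosomal passenger complex, which corrects attachments between chromosomes and the spindle. Its 12 nt microexon was included at 9.88, 11.0 and 9.39% in siQk samples, from at least 412 reads. In siNT samples it was included at 23.0, 16.6 and 24.6%, from at least 428 reads. The siQk samples were close together and the siNT samples spread more, without overlap. The difference was -11.3 points (limma adjusted p = 0.02524). It was near the threshold: 5 of 12 alternatives lost the call, with adjusted p-values from 0.0004242 to 0.1444 over all of them. Those were limma on PSI (0.13) and the fits without siQk 2 (0.06704), siQk 3 (0.1245), siNT 1 (0.114) or siNT 3 (0.1444, difference -9.70 points).

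Tacc2 belongs to the transforming acidic coiled-coil family, which works with the microtubule polymerase CKAP5 at spindle poles. Its exon at chr7:130734949-130735150 can end there or run on to 130735228, and a further end at 130735243 is annotated. Of the annotated transcripts, 8 use the first end, 2 the second and 1 the third. The longer end was used at 28.3, 25.3 and 27.8% in siQk samples and at 7.38, 6.30 and 6.96% in siNT samples. The shorter end was used at 70.8, 73.6 and 69.8% in siQk samples and at 91.8, 92.8 and 92.7% in siNT samples. Both groups were tight and did not overlap, with at least 91 reads in each sample. The differences were 20.2 points for the longer and -21.0 points for the shorter end (limma adjusted p = 0.0002044 for each). The ends share their reads and count as 1 change. Both calls held in all 12 alternatives run, with adjusted p-values up to 0.04367. The shorter end is followed by GTAAGC and the longer end by GTACTT.

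The 4661 nt Tacc2 intron that starts right after the shorter end scored as retained at 20.01, 26.02 and 23.3% in siQk samples and at 8.15, 5.07 and 8.25% in siNT samples. The groups did not overlap, and the difference was 16.0 points (limma adjusted p = 0.0003185). The 78 nt extension is the first stretch of this intron, so a read from the longer exon also crosses the start of the intron. How far the intron's value and the use of the longer end are separate was not tested. With limma on PSI the intron was not called (adjusted p = 0.285, range over the 12 alternatives 4.373e-05 to 0.285).

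**Figure D1:**
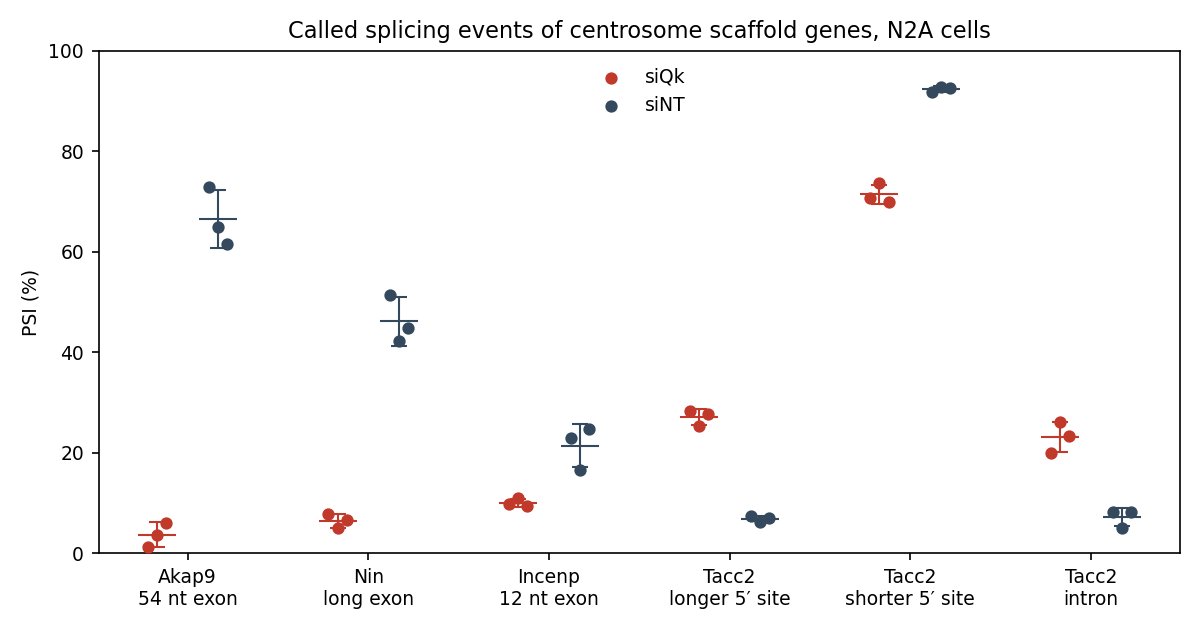
PSI in percent (vertical axis) of the called events in each N2A sample, with siQk left of siNT. Points are samples and bars are the mean with the SD (n = 3). The groups are apart for every event, by the largest distance for the Akap9 exon, at 3.67% in siQk and 66.5% in siNT.

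Most exons of these genes are not alternative in N2A cells. Of 1097 cassette exons listed, 1009 had at least 10 reads in each sample. Of these, 771 had a mean PSI above 98 and 115 one below 2, and the remaining 123 exons in 37 genes were tested. In the siNT samples, 19 exons in 12 genes had a mean PSI from 20 to 80. No exon of Ninl or Cep126 reached 10 reads in each sample.

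Of the 123 tested exons, 3 were called (2.44%), and among all tested exons 1.18% of 12930 were called. All 3 fell, and 0.425% of all tested exons were called and lower in siQk. The samples did not overlap between groups for 19 member exons (15.4%), and for 14.6% of all tested exons. Cep128 supplied 21 of the 123 exons and 4 of the 19. Of its exons, 18 had nearly the same number of exclusion reads, so these counts do not all rest on separate measurements. The differences were positive for 62 and negative for 61 member exons. Their median was 0.10 points and their median size 1.80 points, against 0.04 and 1.82 points over all tested exons. The median size, with the called exons included, was thus about that of all exons. Large differences were less common: 4 member exons (3.25%) differed by 10 or more points, against 5.51% of all. An unadjusted limma p under 0.05 was found for 7 (5.69%), against 9.04% of all.

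Pcm1 and Pcnt, scaffolds of the satellites and of the pericentriolar material, each had an uncalled exon whose groups did not overlap. Pcm1 encodes the core protein of centriolar satellites. Its 174 nt exon was at 76.2, 81.3 and 77.9% in siQk samples and at 71.5, 70.2 and 75.4% in siNT samples. The groups lay close to each other without overlap, and the difference of 6.07 points was not called (limma adjusted p = 0.4512). Pcm1 is also the member with the most reads here, and its 165 nt and 117 nt exons, both in the middle of the range, averaged 65.7% ± 2.55 and 53.9% ± 2.55 in siQk samples and 63.8% ± 2.26 and 55.5% ± 2.01 in siNT samples.

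Pcnt encodes pericentrin, the main organiser of the pericentriolar material. Its 21 nt microexon was at 98.6, 95.8 and 98.2% in siQk samples and at 86.0, 95.2 and 95.6% in siNT samples. Only siNT 1 was well below the others, and the difference of 5.29 points was not called (limma adjusted p = 0.6946). Cdk5rap2 encodes an activator of the gamma-tubulin ring complex at centrosomes. Its 27 nt microexon was at 38.4, 36.7 and 33.7% in siQk samples and at 31.2, 40.0 and 39.8% in siNT samples, which overlap (difference -0.73 points, limma adjusted p = 0.98). The mRNA around these microexons is printed because both were also measured in the neurons.
Pcnt exon (chr10:76403624-76403644, minus strand, exon 21 of 42 in Pcnt-201): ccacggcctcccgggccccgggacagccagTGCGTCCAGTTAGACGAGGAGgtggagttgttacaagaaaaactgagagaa
Cdk5rap2 exon (chr4:70246948-70246974, minus strand, exon 5 of 10 in Cdk5rap2-204): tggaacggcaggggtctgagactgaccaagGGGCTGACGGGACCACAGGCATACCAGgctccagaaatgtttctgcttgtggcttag

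Of 14 microexons (3 to 27 nt) in these genes, 4 were tested, and the fourth lies in Tacc2. This 9 nt exon was at 15.02, 26.8 and 20.7% in siQk samples and at 23.6, 28.7 and 29.4% in siNT samples. The groups overlap, and the difference of -6.39 points was not called (limma adjusted p = 0.6422). GENCODE M21 has no exon with these ends. No microexon of the authors' deposited neural list lies in these genes.

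Among the other spindle scaffolds, a 36 nt exon of Tacc1 was at 11.0, 1.57 and 6.00% in siQk samples. In siNT 2 it was at 1.13%, and siNT 1 and siNT 3 had 0 of 83 and 0 of 98 reads, which allows up to 3.61 and 3.06%. A 95 nt exon of Tacc3 was at 95.3, 96.1 and 94.8% in siQk samples and at 92.9, 88.2 and 93.9% in siNT samples. Neither was called (limma adjusted p = 0.3343 for Tacc1 and 0.5154 for Tacc3).

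Among genes of centriole assembly, a 33 nt exon of Cep63, which encodes a partner of CEP152 in centriole duplication, was at 2.19, 5.54 and 4.29% in siQk samples and at 9.01, 8.64 and 10.9% in siNT samples. It rested on as few as 14 reads in a sample and was not called (limma adjusted p = 0.7938). Elsewhere, a 129 nt exon of Cep95 was at 96.6, 94.2 and 95.1% in siQk samples and at 91.2, 86.5 and 91.9% in siNT samples (limma adjusted p = 0.5608). For both exons the groups were apart by small steps only. In Cep164, which encodes a distal appendage protein needed for cilia, 4 exons had a siNT mean between 20 and 80. Their replicate SDs ran up to 18.6 points in siQk samples and 11.6 points in siNT samples, and none was called.

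**Figure D2:**
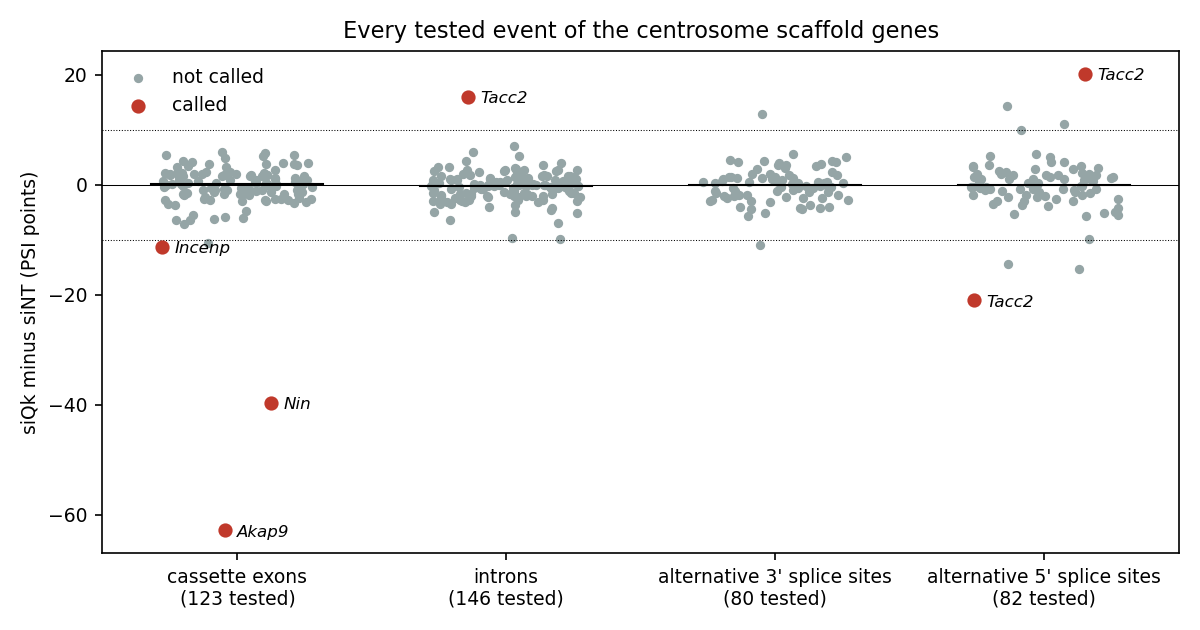
Difference of mean PSI, siQk minus siNT, in points (vertical axis), for every tested event of these genes by event class. Red points are called, black lines are class medians, and dotted lines mark 10 points. The Akap9 and Nin exons at -62.8 and -39.7 points stand below all other exons, and the medians lie close to 0.

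Cep128 encodes a protein of the subdistal appendages and supplied 21 of the 123 tested exons, more than any other member. The most 5′ of these, a 141 nt exon, was at 73.8, 76.0 and 72.0% in siQk samples and at 79.2, 83.7 and 80.4% in siNT samples. These groups did not overlap, and the difference of -7.15 points was not called (limma adjusted p = 0.5357). The other 20 exons had mean PSI values from 3.25 to 17.0% in siQk samples and from 2.82 to 18.7% in siNT samples. In both groups most reads over the middle of the annotated gene skipped these exons.

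A read that skips the middle of Cep128 can count against each of these exons, so they are not separate measurements. The 18 tested exons that follow the first had nearly the same number of exclusion reads within a sample, 91 to 103 in siQk 1 and 105 to 119 in siNT 1. Among them, a 146 nt exon was at 8.02, 12.4 and 12.8% in siQk samples and at 16.0, 17.4 and 18.5% in siNT samples. A 110 nt exon differed the other way, with 12.9, 15.02 and 12.8% in siQk samples and 10.8, 5.66 and 11.8% in siNT samples. Neither was called (limma adjusted p = 0.6038 and 0.7441).

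**Figure D3:**
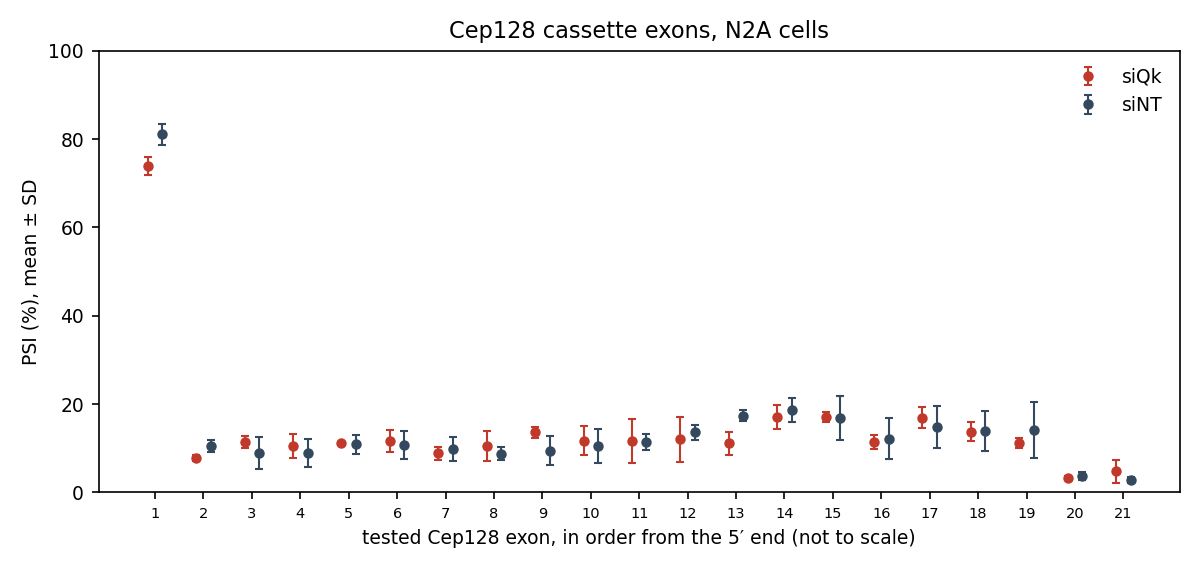
Mean PSI in percent with the SD (n = 3) of the 21 tested Cep128 exons, ordered from the 5′ end of the gene, with siQk left of siNT. The first exon is at 73.9% in siQk and 81.1% in siNT, and all others are below 20% in both groups.

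Of 146 tested introns in 39 of the genes, only the Tacc2 intron was called (0.685%), and 0.113% of 17664 tested introns were called in all. The 78 nt extension lies in this Tacc2 intron, and how far its call is separate from that of the 5′ sites was not tested. For 18 member introns (12.3%) the groups did not overlap, against 10.4% of all tested introns. An unadjusted limma p under 0.05 was found for 10 (6.85%), against 5.02% of all. Among uncalled introns whose groups did not overlap, those with the largest differences after Akap9 were in Cep250, which encodes the protein that links the centriole pair. Its 1066 nt intron was at 8.11, 7.14 and 12.5% in siQk samples and at 13.5, 14.4 and 20.8% in siNT samples. Its 217 nt intron was at 6.12, 20 and 7.32% in siQk samples and at 3.90, 5.45 and 6.02% in siNT samples. These Cep250 introns moved in opposite directions and had as few as 15 and 21 reads in a sample. The next 7 by size among introns without overlap lay in Cep250, Cep164, Cdk5rap2, Cep192, Ofd1 and Cep162, with differences from -5.05 to 3.96 points and limma adjusted p-values of at least 0.7042. The other 7 such introns, in Cep70, Cep295, Tacc1, Cep152, Cep164 and Cep57, differed by at most 2.86 points.

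Of 82 tested alternative 5′ splice sites, the Tacc2 pair was called (2.44%), against 0.107% of 7498 in all. Groups did not overlap for 12 member sites (14.6%), against 10.7% of all. An unadjusted limma p under 0.05 was found for 7 sites (8.54%), against 5.13% of all. In Tacc2, Cep162 and Pcnt both sites of a pair are in each count, and such sites share their reads. Pairs of Cep44 and Cep295 are also among the sites without overlap. These counts thus do not all rest on separate measurements, and sites were counted the same way over all genes. A site of Cep72 was used at 11.8, 11.8 and 11.9% in siQk samples and at 39.5, 18.4 and 23.4% in siNT samples. The siNT samples spread widely, and the site was not called (difference -15.3 points, limma adjusted p = 0.8995). A site of Cep162 that adds 4 nt was used at 20, 16.7 and 7.69% in siQk samples. In siNT 3 it was used at 1.37%, and siNT 1 and siNT 2 had 0 of 38 and 0 of 29 reads, which allows up to 7.90 and 10.3% (limma adjusted p = 0.2817, as few as 15 reads). A Pcnt site that adds 26 nt was at 85.6, 87.1 and 89.6% in siQk samples and at 79.6, 71.2 and 81.8% in siNT samples, and was not called (limma adjusted p = 0.7513). The remaining ones, in Cep44 and Cep295, differed by at most 2.29 points.

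No alternative 3′ splice site of these genes was called among 80 tested, against 0.101% of 9943 in all. At an unadjusted limma p under 0.05 the count was also 0, against 4.85% of all tested 3′ sites, and limma on PSI called 0. Groups did not overlap for 3 member sites (3.75%), against 9.55% of all. A site of Cep152, a scaffold of centriole duplication, was used at 73.1, 70.8 and 74.7% in siQk samples and at 68.4, 52.9 and 58.8% in siNT samples, from as few as 17 reads. The difference of 12.8 points was not called (limma adjusted p = 0.9922). The others were both sites of a Cep164 pair, 4.25 points apart in opposite directions.

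Summed exon-event reads of a gene served as a rough measure of its expression, and a read that serves several events is counted in each. Of 46 member genes tested, 1 was called (2.17%), against 4.54% of 10851 genes in all. An unadjusted limma p under 0.05 was found for 12 of them (26.1%), against 20.4% of all genes. Cep128 was at 88.0, 77.4 and 81.2 CPM in siQk samples and at 61.1, 63.9 and 49.5 CPM in siNT samples. The groups did not overlap (log2 fold change 0.50 ± 0.11 SE, limma adjusted p = 0.04292). The stretch of Cep128 that spans the exons with near-equal exclusion reads holds 22 exon events, of which 18 were tested. These 22 events made up 65.0 to 73.3% of the Cep128 sums over all samples. Without them, Cep128 was at 27.6, 20.8 and 25.8 CPM in siQk samples and at 19.9, 17.0 and 17.4 CPM in siNT samples. It was then not called (log2 fold change 0.43, limma adjusted p = 0.1011). The call was also lost without siQk 2 (0.1099), siQk 3 (0.1513), siNT 1 (0.0742), siNT 2 (0.07749) or siNT 3 (0.1252), and with no filter on reads (0.07896). Over all 11 alternatives its adjusted p ran from 0.004704 to 0.1513. In these bulk samples, fewer cells of a type and less RNA per cell cannot be told apart.

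The member genes as a set had a median log2 fold change of 0.03, against 0.02 over all genes, and ranged from -0.39 to 0.50. Cep170b, at 37.0, 48.6 and 53.3 CPM in siQk samples and 51.9, 60.2 and 69.3 CPM in siNT samples, had the lowest value (-0.39, adjusted p = 0.1934) and overlapping groups. Nin and Akap9, whose exons changed, had log2 fold changes of 0.31 and -0.26 (adjusted p = 0.2146 and 0.1453). Cep70, Cep57l1, Cep112 and Cep55 had values of -0.30, 0.29, 0.28 and 0.27, and Cep55, which acts in the final cut between daughter cells, was at 103.0, 114.9 and 124.8 CPM in siQk samples and 96.4, 93.3 and 93.8 CPM in siNT samples. None of these passed the test (limma adjusted p of at least 0.1273). Pcm1 averaged 1001 ± 41.3 CPM in siQk samples and 1155 ± 42.3 CPM in siNT samples (SD, n = 3 each; log2 fold change -0.21, limma adjusted p = 0.1089).

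**Figure D4:**
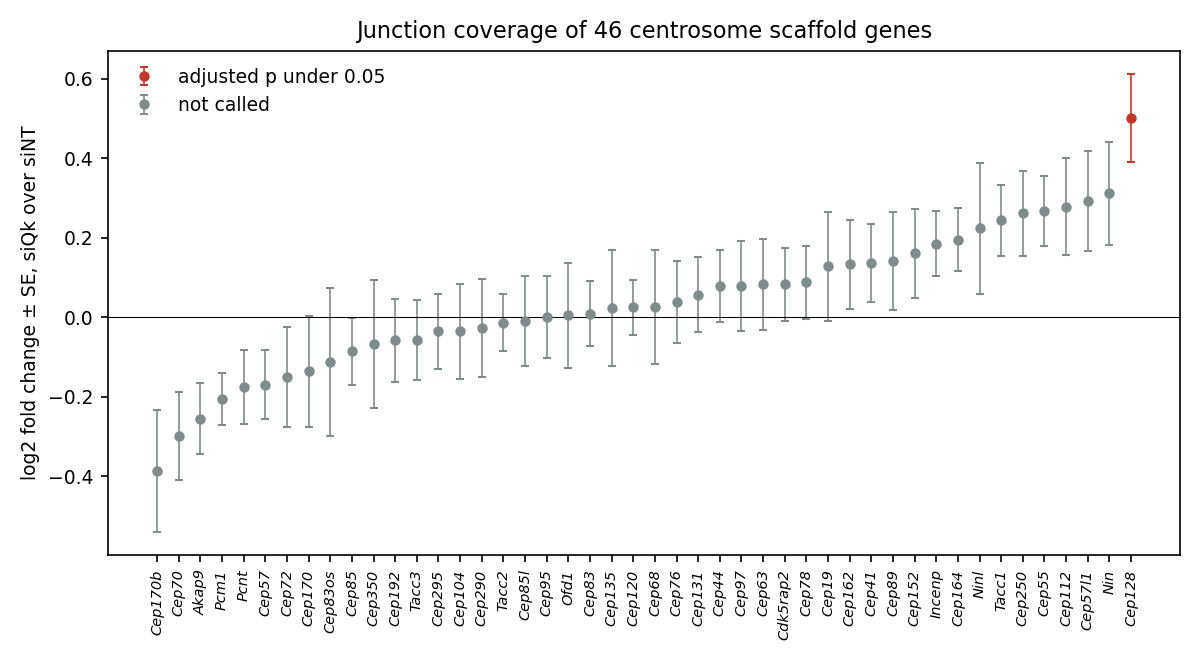
Log2 fold change of junction coverage, siQk over siNT, with its standard error for each of 46 genes (horizontal axis, sorted). Cep128 at 0.50 is the only one called, and all others lie between -0.39 and 0.31.

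A list of 70 other genes of the centrosome and mitosis, with no member among them, gave 142 tested exons in 45 genes, of which 2 were called (1.41%, against 1.18% of all tested exons). Both rose: a 24 nt exon of Ckap5, the polymerase that TACC proteins recruit, averaged 66.8% ± 1.46 in siQk samples and 48.1% ± 2.34 in siNT samples (limma adjusted p = 0.007052). A 42 nt exon of Numa1, which encodes a spindle pole protein, averaged 70.4% ± 4.75 in siQk samples and 46.5% ± 0.843 in siNT samples (limma adjusted p = 0.005008; SD, n = 3 each). None of its 211 introns, 128 alternative 3′ sites and 75 alternative 5′ sites was called, against 0.113, 0.101 and 0.107% of all tested events of these classes. An unadjusted limma p under 0.05 was found for 8 of the introns (3.79%, against 5.02% of all), 8 of the 3′ sites (6.25%, against 4.85%) and 4 of the 5′ sites (5.33%, against 5.13%). In coverage, 0 of 68 of these genes and 0 of 11 proliferation genes were called, against 4.54% of all genes. With an unadjusted limma p under 0.05 there were 8 (11.8%) and 1 (9.09%), against 20.4% of all genes. The proliferation list summed to 4535 to 4759 CPM in siQk samples and 4727 to 4951 CPM in siNT samples, ranges that overlap slightly.

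In the neurons the authors deposited 1 PSI per condition, with the replicates combined, and a probability of a difference. No test across samples could be made, the depth is unknown, and the table holds no gene levels that could check the cell type. In the authors' deposited table, the 21 nt Pcnt microexon was at 93.9% with cycloheximide and at 49.0% in untreated neurons, a difference of 44.8 points with a probability of 0.999. It was the only one of the 8 member microexons past 10 points and a probability of 0.9, against 9.4% of 2469 rows in all, of which 55 were higher and 177 lower with cycloheximide. The length of the exon is a multiple of 3. In N2A cells, measured with another table, the exon averaged 97.5% ± 1.51 in siQk samples and 92.3% ± 5.43 in siNT samples (SD, n = 3 each).

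The other 7 microexons differed by less than 7 points between the conditions in the authors' deposited table. The 24 nt exon of Cep128 was at 88.3% with cycloheximide and 81.5% in untreated neurons, and the 29 nt exon of Cep89, a distal appendage gene, was at 99.8% with cycloheximide and 98.7% in untreated neurons. The 27 nt exon of Cdk5rap2 was at 9.88% with cycloheximide and 14.96% in untreated neurons, while in N2A cells it averaged 36.3% ± 2.36 in siQk samples and 37.0% ± 5.04 in siNT samples. The remaining 4 were rarely included. The 22 nt exon of Cep112 was at 6.38% with cycloheximide and 12.1% in untreated neurons. The 17 nt exon of Cep250 was at 4.68% with cycloheximide and 8.98% in untreated neurons. For the 21 nt exon of Cep290, a gene of the ciliary transition zone, the values were 5.49% with cycloheximide and 9.10% in untreated neurons. For the 22 nt exon of Cep63 they were 0.457% with cycloheximide and 2.38% in untreated neurons. The deposited probabilities of these 7 microexons ran from 0.593 for Cdk5rap2 to 0.849 for Cep89.

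**Figure D5:**
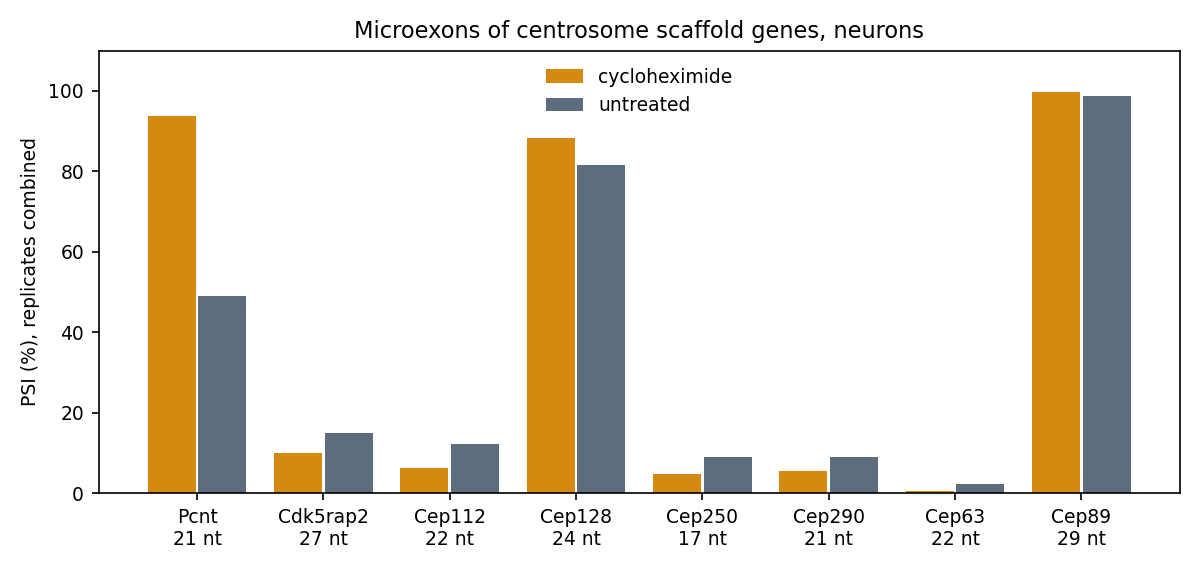
PSI in percent of the 8 member microexons in neurons, from the authors' deposited table with replicates combined, so without error bars. Cycloheximide is left of untreated. Pcnt is at 93.9% with cycloheximide and 49.0% in untreated neurons, and the other pairs differ by less than 7 points.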

How the data were processed

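RNA was sequenced from stranded libraries in 6 N2A samples and 4 neuron samples. For N2A cells the authors deposited PSI as a percent per event and sample, and beside it a text cell (quality score; other kind of value) that holds the reads for and against inclusion, per the file headers. These reads give the deposited percent within 1 point in 100% of events with 10 reads. For the neurons and the neural microexon list the authors deposited PSI as a fraction with replicates combined, a probability as a fraction and a difference as a score; fractions are printed here as percent. Of the neuron columns the first is read as untreated, since the control comes first in the name of the table. The build is mm10, per the submitters' processing notes. The aligner and splicing program are not given in the sources used here.

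Events with at least 10 reads in each N2A sample and a mean PSI from 2 to 98 were fitted over all events of a class: log2 of inclusion over exclusion reads, each plus 0.5, with limma 3.58.1 in R 4.3.3 (robust, two-sided, variance trend on sampling variance), with Benjamini-Hochberg adjustment within the class. Called means an adjusted p under 0.05 and mean PSI values 10 or more points apart. Coverage is the sum of exon-event reads per gene, as log2(CPM + 0.5), in genes that averaged 20 reads or more, tested with limma's trend method; a read can count in several events, and low genes' fold changes are understated. Pairs of samples within a group differed more than sampling allows (1.49 to 2.93 times its variance), and none is a copy. Sites sharing reads are not independent. The scripts were tested on simulated data.

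The members and gene lists were chosen with earlier results of these data known. Named are all called events, up to 10 further events a class with the largest differences among those whose groups do not overlap, all tested microexons, and the genes with the largest coverage changes; further exons of Pcm1, Cep164, Nin and Cep128 were added after their values were seen. Tables and figures used Python 3.11.15, pandas 2.3.3 and matplotlib 3.10.9.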

Additional observations from a re-analysis of the deposited data

How the results depend on the processing

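Every direction held under each alternative run for the called events, Qk and Cep128. The number of called member exons was 3 in the fit reported and 1 to 3 when leaving out each sample in turn. The number of called introns was 1, and 0 with limma on PSI. The number of genes called in coverage was 1, and 0 to 3 when leaving out each sample, and 0 with no filter on reads. It was also 0 without the 22 Cep128 exon events that span the exons with near-equal exclusion reads. That alternative was chosen after seeing the data. With a replicate block the count was 5 (Cep128, Cep170b, Cep55, Nin and Pcm1; 10.9%), while over all genes 1551 were called (14.3%), against 493 without the block. The counts of called exons, introns, 3′ sites and 5′ sites were 3, 1, 0 and 2 with and without it. The deviations of same-numbered samples from their group means correlated at 0.139, 0.0193 and 0.116 in exon inclusion and at 0.479, -0.136 and 0.48 in coverage, for numbers 1, 2 and 3. The siQk 2 sample correlated best with siNT 3 in both (0.0451 and 0.493). Since number 2 was not above 0.1 and the labels name nothing that the numbers share, the fit without the block was kept, although in coverage numbers 1 and 3 moved together. No alternative added a splicing call in these genes. Exons with ACTAAC or ACTAAT beside them numbered 5 within 150 nt and 4 within 300 nt, where fewer introns are covered. The cause of the lost calls was not tested. With 21 to 28 reads in the thinnest samples, the Akap9 and Nin values in siQk are limited by depth.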
